A study of Mus musculus with 8 samples.

Results

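Chemokines and chemokine receptors were examined in the dorsal epidermis of P4 mice. The genes were chosen by name: protein-coding genes whose mouse symbol marks a CC, CXC, XC or CX3C chemokine, a receptor of one of these 4 families, or one of the atypical receptors Ackr1 to Ackr4. This gave 63 of the 55416 genes of the count table, 41 ligands and 22 receptors. Chemokines are small secreted or membrane-anchored proteins that steer the movement of leukocytes. They bind receptors that span the membrane and signal through inhibitory G proteins, whereas the atypical receptors take up and clear or present chemokines without that signal. In mouse epidermis, keratinocytes make several of these ligands, and Langerhans cells and gamma-delta T cells with long dendrites, called dendritic epidermal T cells, carry many of the receptors.

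The data compared 4 control libraries, labelled WT, with 4 libraries labelled as an epidermal knockout of Rora and called RoraEKO here. Rora encodes the nuclear receptor RORα. RoraEKO mice came from Rora flox/flox mice crossed with a K14-Cre line, in which the human KRT14 promoter drives Cre, so the deletion is meant for keratinocytes and not for the leukocytes of the epidermis. The study describes its controls as littermates, and whether they carried the floxed alleles or Cre is not given in the sources used here. All mice were at postnatal day 4, no further treatment was given, and the epidermis was peeled from heat-treated back skin. Library totals ran from 17286903 to 26705533 counts. Values are counts per 1000000 (CPM) after TMM scaling, a correction for differences in library composition. A floor of 3 counts corresponded to 0.113 to 0.196 CPM and covers counting error only. Rora itself was at 212 ± 66.6 CPM in control and 196 ± 34.6 CPM in RoraEKO (SD, n = 4 each), with a log2 fold change of -0.11 and an adjusted p of 0.877, and gene counts do not resolve the deleted exons. Xist was at 416 and 527 CPM in control C1 and C6 and at or below 0.0546 CPM in the other 6 libraries, while the Y-linked gene Ddx3y was at 0 in these 2 and at 15.7 to 24.1 CPM in the other 6. Libraries with the pattern of female mice were thus found in control and not in RoraEKO, so sex and genotype are partly confounded, and results below are also given without these 2 libraries where that matters. Keratinocyte genes marked the tissue: the summed level of Krt1, Krt10, Flg, Loricrin and Ivl was 45557 to 70739 CPM in control and 85962 to 107138 CPM in RoraEKO, a gap carried by Krt1 and Krt10 and not by the other 3 genes, against at most 10.4 CPM for 6 fibroblast genes and 3.71 CPM for 6 endothelial genes in any library.

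The families differ in the spacing of the first cysteines of the mature protein, which gives each its name. The coding stretch around them is shown for the 4 ligands with the highest level per length in these libraries, which happen to hold 1 of each family. The stretches were read from GRCm39 along the coding strand, and capitals mark the cysteine codons. Ccl6 (chr11:83480200-83480229, minus strand) has 2 adjacent cysteines, Cx3cl1 (chr8:95504667-95504705, plus strand) has 3 residues between them, Cxcl16 (chr11:70349941-70349973, minus strand) has 1 residue between them, and Xcl1 (chr1:164760532-164760558, minus strand) has a single one.
Ccl6: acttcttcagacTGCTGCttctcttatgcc
Cx3cl1: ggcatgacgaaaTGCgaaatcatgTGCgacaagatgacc
Cxcl16: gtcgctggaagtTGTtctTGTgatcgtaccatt
Xcl1: gaagagagtagcTGTgtgaacttacaa

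RORα binds DNA at the letters AGGTCA preceded by an A/T-rich stretch, so AGGTCA was searched on both strands in the 250 bases before each start site. It was present before 15 of the 63 genes (23.8%), before 6 of the 16 that could be tested for expression (37.5%), and before 13.1% of 21770 protein-coding genes. Cxcl16 and Cxcr6, to which the results below turn, held no match in this window. The 6 windows of tested genes are shown along the gene's strand, with the letters in capitals, as AGGTCA or as its reverse complement TGACCT. They lie in GRCm39 at chr9:103980277-103980302 (Ackr4, minus strand), chr1:83094303-83094328 (Ccl20, plus strand), chr8:95472060-95472085 (Ccl22, plus strand), chr4:41774399-41774419 (Ccl27a, minus strand), chr11:83483986-83484011 (Ccl6, minus strand) and chr13:56444479-56444504 (Cxcl14, minus strand).
Ackr4: gtggacagcaAGGTCAgctttgcatg
Ccl20: accccccaccTGACCTtcacaccttc
Ccl22: gatatggctgAGGTCAtagaacagac
Ccl27a: aatcaAGGTCAcagtctacca
Ccl6: tagcccaccaTGACCTttgccctcgc
Cxcl14: tgctcccgccTGACCTtcttccaagg
A match of 6 letters is a description of the sequence and not a binding site, and binding was not measured.

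Most chemokine genes were low or not detected in this tissue. Only 16 of the 63 reached 10 or more counts in 4 or more libraries, and the same 16 passed the filter on low counts and were tested. They were the ligands Cxcl16, Cx3cl1, Cxcl14, Ccl6, Ccl22, Ccl27a, Ccl27b, Ccl20, Ccl25 and Xcl1 and the receptors Ccr4, Ccr9, Cxcr6, Cx3cr1, Ackr2 and Ackr4. All 63 genes together took 1154 to 3035 counts per library, which was 0.00668% to 0.0114% of the library. Cxcl16 alone took 26.3% to 32.5% of these chemokine counts in control and 16.7% to 26.1% in RoraEKO.

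Per kilobase of merged exons, the highest mean levels over both genotypes were those of Ccl6 (7.15 CPM per kb), Xcl1 (6.55), Cxcl16 (4.41), Cx3cl1 (2.92), Ccl27a (2.52) and Cxcl14 (2.33). In control, Ccl6 stood at 7.03, Xcl1 at 5.84 and Cxcl16 at 5.82 CPM per kb, and in RoraEKO they stood at 7.26, 7.26 and 3.0 CPM per kb. Cx3cl1 was at 2.67 CPM per kb in control and at 3.17 in RoraEKO, where its mean lay above that of Cxcl16. Over the control libraries Ccl6 ranged from 3.85 to 12.2, Xcl1 from 2.93 to 8.87 and Cxcl16 from 5.35 to 6.04 CPM per kb, so these neighbours in the order were not separated beyond their spread in control. The tested receptors lay lower, from 0.0949 CPM per kb for Ackr4 to 1.03 CPM per kb for Ccr4. Merged exons of Ccr9 (10583 bases) and Ccl25 (12537 bases) include those of long annotated transcripts, which lowers their level per length.

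**Figure D1:**
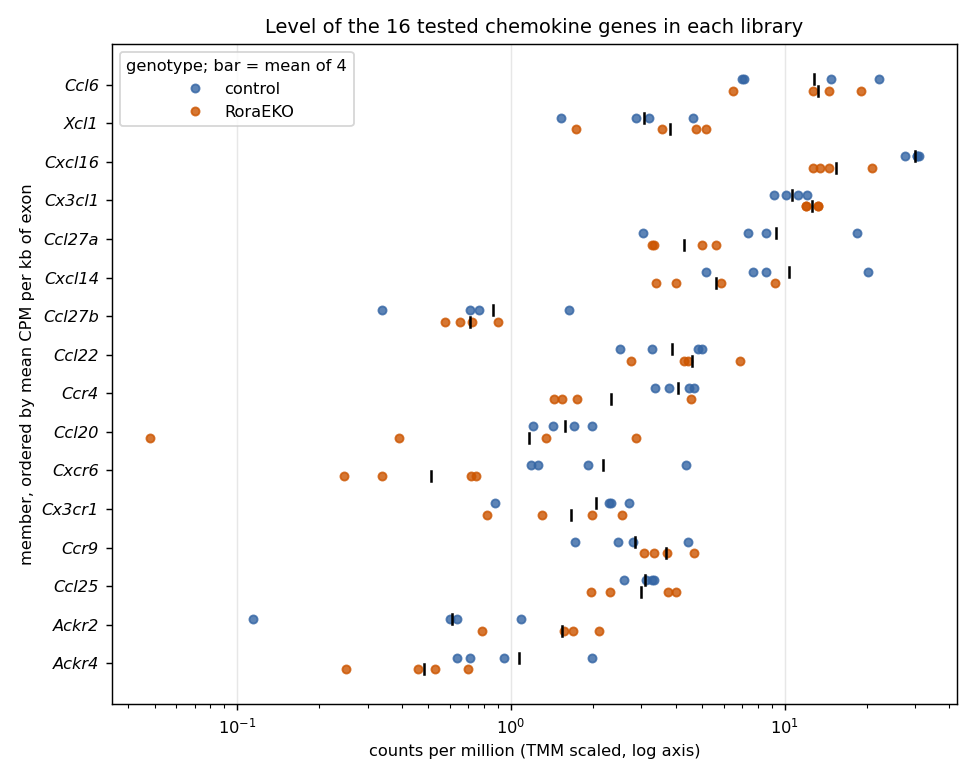
CPM of the 16 tested chemokine genes in each of 4 control (blue) and 4 RoraEKO (orange) libraries on a log axis, with a bar at each genotype's mean and genes ordered by mean CPM per kb of exon. Cxcl16 and Cxcr6 are the 2 genes whose genotypes do not overlap, and Ccl20 spreads most in RoraEKO, from 0.0482 to 2.88 CPM.

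The comparison of genotypes asked which of these genes differ between libraries labelled control and those labelled as the epidermal knockout, since the loss of Rora was not resolved by these counts. One did by the cutoffs: the ligand Cxcl16 was lower in RoraEKO, and no gene was called higher. Its receptor Cxcr6 was also lower in all 4 RoraEKO libraries than in any control library but missed the adjusted cutoff. A call needed a fold change over 1.5 and an adjusted p under 0.05 in edgeR's quasi-likelihood test, with Benjamini-Hochberg adjustment. They covered 1 of the 16 tested genes, against 5.51% of all 13147 genes tested, with 3.22% called lower and 2.3% called higher, so the share of calls was near the background. An unadjusted p under 0.05 was found for 5 of the 16 (Cxcl16, Cxcr6, Ackr2, Ccl27a and Ackr4), against 18.2% of all genes. Genotypes did not overlap for 2 of the 16, both lower in RoraEKO, against 12.9% of all genes in either direction and 7.54% in the lower direction. The log2 fold change was above 0 for 6 and below 0 for 10 of the 16, with a median of -0.29, beside 56.1% below 0 and a median of -0.04 over all genes tested. For the 10 ligands the median was -0.16 and for the 6 receptors -0.55.

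**Figure D2:**
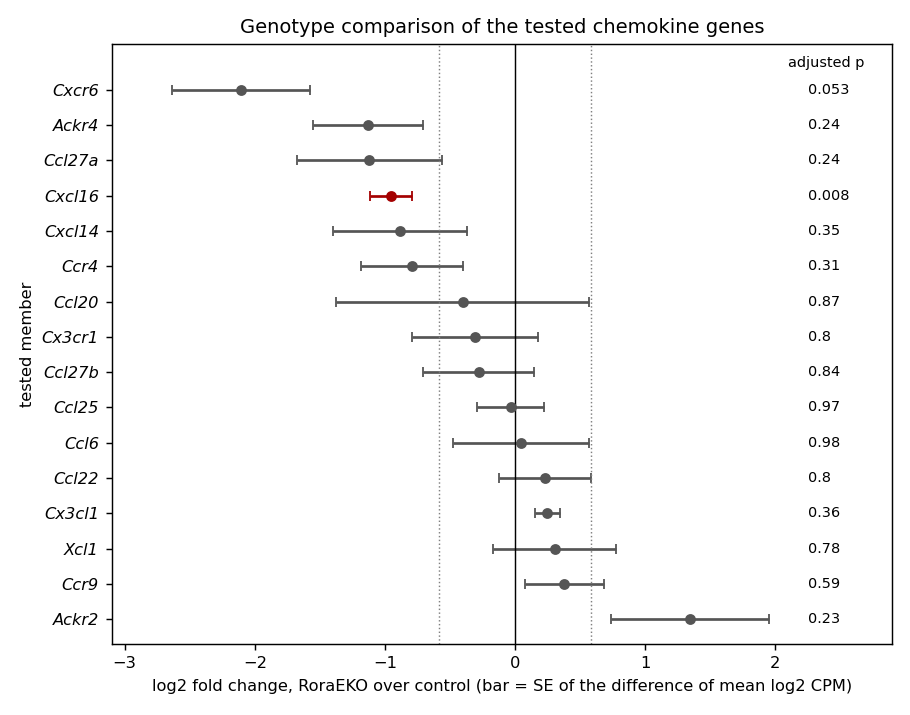
Log2 fold change of RoraEKO over control for the 16 tested genes, with bars for the standard error of the difference of mean log2 CPM, dotted lines at a fold change of 1.5 and the adjusted p of edgeR's quasi-likelihood test at the right. Cxcl16 (red, -0.95) is the one past the cutoffs, while Cxcr6 has the lowest value, -2.11, and Ackr2 the highest, 1.34.

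Cxcl16 (ENSMUSG00000018920, chr11:70344517-70352620, minus strand) encodes a chemokine that is made on a membrane stalk, can be shed by Adam10, and holds or attracts cells that carry Cxcr6. Its level was 30.4, 27.4, 31 and 30.4 CPM in control A1, B1, C1 and C6 and 12.7, 20.8, 14.5 and 13.4 CPM in RoraEKO A3, B4, C2 and C3. The control libraries lay close together, and the highest RoraEKO library, B4, stayed below the lowest control library, B1. The means were 29.8 ± 1.61 CPM and 15.4 ± 3.69 CPM (SD, n = 4 each), 1.94-fold higher in control, with a log2 fold change of -0.95 ± 0.164 (SE), with an adjusted p of 0.00803 in edgeR's quasi-likelihood test. Within each first letter of the sample titles, whose meaning the labels do not give, every RoraEKO library was below every control library. Without control C1 and C6 the log2 fold change was -0.86 and the adjusted p 0.0952, which ended the call. With Xist as a covariate Cxcl16 was still called, in a fit that called 3.5% of all genes. Cxcl16 overlaps Zmynd15 and Med11 on the other strand, and the strand setting of the counting is not given in the sources used here. Zmynd15 was at 1.17 and 1.22 CPM in control and RoraEKO, and Med11 at 10.5 and 9.01 CPM.

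Cxcr6 (ENSMUSG00000048521, chr9:123635534-123640825, plus strand) encodes the receptor of Cxcl16 and is carried by T cells of epithelia, among them dendritic epidermal T cells. Its level was 1.26, 1.91, 1.18 and 4.35 CPM in control A1, B1, C1 and C6, from 25 to 116 counts per library. In RoraEKO A3, B4, C2 and C3 it was 0.718, 0.247, 0.337 and 0.749 CPM, from 6 to 15 counts. The genotypes did not overlap, and control C6 stood well above the other control libraries. The means were 2.18 ± 1.49 CPM and 0.513 ± 0.258 CPM (SD, n = 4 each), 4.25-fold higher in control, with a log2 fold change of -2.11 ± 0.53 (SE), with an adjusted p of 0.0533 in edgeR's quasi-likelihood test. The adjusted p was 0.00492 with DESeq2 and ran from 0.00481 to 0.492 over 20 alternatives. It was 0.0362 without control A1 and 0.0489 with the title letter as a block, each of which made Cxcr6 a call, and 0.197 at a log2 fold change of -1.59 without control C1 and C6. With Xist as a covariate the adjusted p was 0.208 at a log2 fold change of -1.62 (edgeR's quasi-likelihood test). Without control C6 alone the log2 fold change was -1.48. Cxcr6 lies within Fyco1, a gene of the other strand at 57.0 CPM in control and 48.1 CPM in RoraEKO.

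The level of Cxcr6 was set beside that of other T cell genes of the same library, because in bulk tissue fewer cells of a type and less RNA per cell cannot be told apart. The 22 listed T cell genes outside the chemokine family, such as the receptor chains Cd3e, Cd3g and Trdc, summed to 59.5, 34.8, 90.2 and 52.1 CPM in control A1, B1, C1 and C6. In RoraEKO A3, B4, C2 and C3 they summed to 79.5, 35.3, 79.8 and 124.8 CPM. The genotypes overlapped, and the difference on the log2 scale was 0.38 (exact two-sided permutation p = 0.486). Of these genes 19 were tested, and none was called by edgeR's quasi-likelihood test, by its likelihood ratio test or by DESeq2, which called 5.51%, 7.67% and 7.84% of all genes tested. At an unadjusted p under 0.05, met by 18.2% of all genes tested, there were 2 of the 19, Cd7 and Zap70, both with a log2 fold change above 0. Only 4 of the 19 had a log2 fold change below 0, and the median was 0.43. Over all genes tested, 56.1% were below 0 and the median was -0.04.

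Cxcr6 amounted to 2.11%, 5.5%, 1.31% and 8.36% of the T cell sum in control A1, B1, C1 and C6. In RoraEKO A3, B4, C2 and C3 it amounted to 0.902%, 0.699%, 0.423% and 0.6%. The genotypes did not overlap, and the control libraries spread more widely. The means were 4.32 ± 3.25% and 0.656 ± 0.2% (SD, n = 4 each), a difference of -2.41 on the log2 scale. This share rests on the same Cxcr6 counts as the comparison above, so it is a description and not separate evidence. Against Cd3e, Cd3d, Cd3g and Cd247 alone the difference was -2.32.

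**Figure D3:**
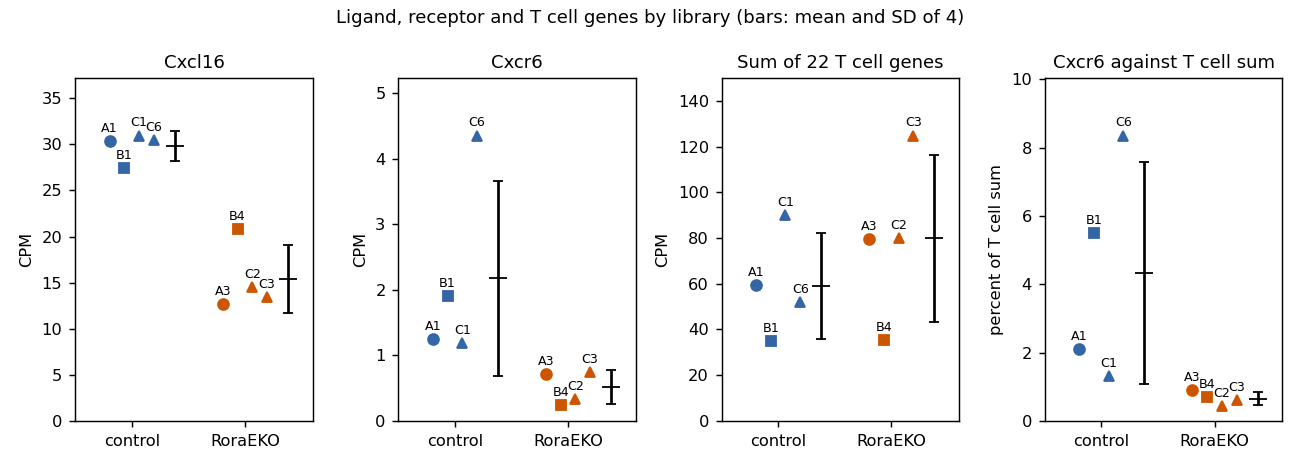
Cxcl16 (CPM), Cxcr6 (CPM), the sum of 22 T cell genes (CPM) and Cxcr6 as a percentage of that sum in each library, with the mean and SD of 4 libraries per genotype; marker shapes stand for the first letter of the sample title. Control lies above RoraEKO without overlap for Cxcl16, for Cxcr6 and for its share of the T cell sum, while the T cell sums of 34.8 to 90.2 and 35.3 to 124.8 CPM overlap.

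Cx3cl1, the other membrane-anchored ligand, gave no call. Its level was 10.1, 12.0, 11.2 and 9.16 CPM in control A1, B1, C1 and C6 and 13.2, 12.0, 13.3 and 11.9 CPM in RoraEKO A3, B4, C2 and C3. The ranges overlapped only at control B1, and the log2 fold change was 0.25 ± 0.0949 (SE), with an adjusted p of 0.356 in edgeR's quasi-likelihood test. Its receptor Cx3cr1, found on macrophages and some T cells, was at 2.05 ± 0.803 CPM in control and 1.66 ± 0.756 CPM in RoraEKO (SD, n = 4 each).

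Among the ligands that draw T cells to skin, Ccl27a, a keratinocyte chemokine that binds Ccr10, was at 18.3, 7.32, 8.57 and 3.04 CPM in control A1, B1, C1 and C6. In RoraEKO A3, B4, C2 and C3 it was at 5.61, 4.97, 3.28 and 3.35 CPM. Control A1 was the highest library and control C6 the lowest, so the genotypes overlapped, and the log2 fold change was -1.12 ± 0.559 (SE), with an adjusted p of 0.236 in edgeR's quasi-likelihood test. Ccl27b, a near copy of Ccl27a, was at 0.862 ± 0.550 CPM in control and 0.712 ± 0.138 CPM in RoraEKO (SD, n = 4 each). Of the 432 bases of its longest transcript, a run of 210 is identical in Ccl27a, so the assignment of reads between these genes is uncertain. Ccr10 did not exceed 6 counts in any library. The pair of Ccl22, a ligand made by dendritic cells and Langerhans cells, and its receptor Ccr4 gave no call. Ccl22 was at 3.89 ± 1.2 CPM in control and 4.58 ± 1.70 CPM in RoraEKO (SD, n = 4 each). Ccr4 was at 4.07 ± 0.618 CPM in control and 2.32 ± 1.5 CPM in RoraEKO (SD, n = 4 each), with RoraEKO B4 at 4.56 CPM and the other 3 RoraEKO libraries at 1.44 to 1.75 CPM. Without B4 the log2 fold change of Ccr4 went from -0.79 to -1.36 and its adjusted p from 0.308 to 0.0131 (edgeR's quasi-likelihood test). B4 is the stray library of this gene, so leaving it out lowers the p by construction. That fit called 4.47% of all genes, and it was the only 1 of 20 alternatives that called Ccr4.

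Cxcl14, a homeostatic chemokine of epithelia, was at 20.1, 7.65, 8.52 and 5.18 CPM in control A1, B1, C1 and C6 and at 5.87, 9.20, 4.00 and 3.40 CPM in RoraEKO A3, B4, C2 and C3. As for Ccl27a, control A1 was far above the other control libraries, and the genotypes overlapped, at a log2 fold change of -0.88 ± 0.516 (SE), with an adjusted p of 0.349 in edgeR's quasi-likelihood test. Without control A1 the log2 fold change was -0.33 for Cxcl14 and -0.55 for Ccl27a, and without control C1 and C6 it was -1.25 and -1.53. Ccl6, a CC ligand of myeloid cells, was at 7.12, 14.8, 7.01 and 22.2 CPM in control A1, B1, C1 and C6 and at 12.7, 6.49, 19.0 and 14.6 CPM in RoraEKO A3, B4, C2 and C3. The ranges of the genotypes largely coincided, and the log2 fold change was 0.05 ± 0.522 (SE), with an adjusted p of 0.981 in edgeR's quasi-likelihood test. Xcl1, which T cells and natural killer cells release to draw Xcr1-bearing dendritic cells, was at 2.85, 1.53, 4.64 and 3.19 CPM in control A1, B1, C1 and C6 and at 4.76, 1.73, 3.57 and 5.14 CPM in RoraEKO A3, B4, C2 and C3. The lowest library of each genotype was the one of title letter B, which also had that genotype's lowest T cell sum, and the log2 fold change was 0.31 ± 0.473 (SE), with an adjusted p of 0.78 in edgeR's quasi-likelihood test. Xcr1 had 0 counts in every library.

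Of the homing ligands of mucosa and lymphoid tissue, Ccl20, the ligand of Ccr6, was at 1.58 ± 0.338 CPM in control and 1.17 ± 1.27 CPM in RoraEKO (SD, n = 4 each). It ran from 1 count in RoraEKO C2 to 70 counts in RoraEKO B4, whereas control held 26 to 52 counts, and Ccr6 had 0 counts in every library. Ccl25, the ligand of Ccr9, was at 3.08 ± 0.342 CPM in control and 3 ± 1.02 CPM in RoraEKO (SD, n = 4 each). Ccr9 was at 2.85 ± 1.15 CPM in control and 3.70 ± 0.706 CPM in RoraEKO (SD, n = 4 each). Ccr9 shares its locus with Slc6a20a on the other strand, which was called higher in RoraEKO (15.5 against 36.8 CPM, log2 fold change 1.25, adjusted p = 0.0194, edgeR's quasi-likelihood test), and the split of reads between them was not tested.

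The 2 tested atypical receptors had log2 fold changes of opposite sign, neither past the cutoffs without a block. Ackr2, which takes up inflammatory CC chemokines, was at 0.114, 0.601, 1.09 and 0.638 CPM in control A1, B1, C1 and C6 and at 0.783, 1.56, 1.69 and 2.1 CPM in RoraEKO A3, B4, C2 and C3. The genotypes overlapped only between control C1 and RoraEKO A3, and the log2 fold change was 1.34 ± 0.607 (SE), with an adjusted p of 0.226 in edgeR's quasi-likelihood test. Within each title letter every RoraEKO library was above every control library, and with the letter as a block Ackr2 was called, at a log2 fold change of 1.44 and an adjusted p of 0.0435, where that fit called 7.6% of all genes. Without the block the log2 fold change was 0.99 without control A1, 2.21 (adjusted p = 0.179, edgeR's quasi-likelihood test) without control C1 and C6, and 2.18 (adjusted p = 0.141) with Xist as a covariate. Ackr4, which takes up Ccl19, Ccl21 and Ccl25, was at 1.98, 0.710, 0.947 and 0.638 CPM in control A1, B1, C1 and C6 and at 0.457, 0.699, 0.530 and 0.250 CPM in RoraEKO A3, B4, C2 and C3. Control C6 lay below RoraEKO B4, control A1 was the highest, and the log2 fold change was -1.13 ± 0.424 (SE), with an adjusted p of 0.241 in edgeR's quasi-likelihood test, with -0.64 without control A1 and -1.41 without control C1 and C6. Ackr4 overlaps Acad11 on the other strand, which was at 18.3 CPM in control and 27.8 CPM in RoraEKO.

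The other 47 genes, 31 ligands and 16 receptors, were too low to test. No count was found in any library for 16 of them: Ccl8, Ccl11, Ccl17, Ccl19, Ccl21b, Ccl21d, Ccl21e, Ccl26, Cxcl5, Cxcl13, Cxcl15, Ccr3, Ccr6, Cxcr1, Xcr1 and Ackr1. At most 3 counts were found for 12. Among these, Ccr7 and Ccl9 reached 3 counts, Ccl21a and Cxcr3 reached 2, and Cxcl1, Cxcl11, Cxcl17, Ccl5, Ccl7, Ccl12, Ccl24 and Cxcr5 reached 1. The copies of Ccl21 are near identical, so their counts are uncertain. The remaining 19 had more than 3 counts in some library.

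Counts of several inflammatory ligands in this low range came mainly from RoraEKO C2 and C3. Cxcl2, which draws neutrophils through Cxcr2, had 0, 0, 48 and 34 counts in RoraEKO A3, B4, C2 and C3 and 8, 1, 0 and 0 counts in control A1, B1, C1 and C6. Cxcl10, an interferon-induced ligand of Cxcr3, had 4, 0, 41 and 18 counts in RoraEKO and 7, 7, 0 and 7 in control, in the same order. The split thus lay within RoraEKO, whose other 2 libraries were within the control range for both genes. Ccl3 had 2, 1, 18 and 25 counts in RoraEKO and 6, 9, 6 and 7 in control, and its relative Ccl4 had 0, 0, 21 and 5 against 5, 1, 0 and 0. Ccl2, which draws monocytes, had 10 and 4 counts in RoraEKO C2 and C3, and Cxcl3 had 2 and 4, with 0 in the other 6 libraries. Ccr1, a receptor of Ccl3, had 0, 3, 19 and 17 counts in RoraEKO and 4, 0, 5 and 2 in control. With genes of at least 1 count included in the fit, Ccl2, Cxcl2, Cxcl3 and Ccr1 had adjusted p-values of 0.223, 0.256, 0.363 and 0.434 (edgeR's quasi-likelihood test), so none was called. The untested ligands together held 171 and 102 counts in RoraEKO C2 and C3 and 16 to 79 counts in the other 6 libraries. In the same 2 libraries, 6 endothelial genes summed to 3.71 and 2.05 CPM against at most 0.914 CPM elsewhere. The 8 neutrophil genes stood apart in RoraEKO C2 only, at 3.42 CPM, where C3 had 0.599 CPM and the other 6 libraries at most 0.495 CPM. The sum of the 10 macrophage genes did not follow this split. It was 18.2 and 14.3 CPM in RoraEKO C2 and C3 and 22.7 CPM in control A1. Single genes of this list differed. Cd14 was at 2.94 and 2.55 CPM in RoraEKO C2 and C3 and at most 1.1 CPM in the other 6 libraries. Ly6c2 and Mpeg1 also had their 2 highest levels in C2 and C3. Adgre1, C1qa, C1qb, C1qc, Mrc1, Cd68 and Lyz2 did not. The part of endothelial cells, neutrophils and macrophages in the counts was not tested.

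Counts of the other low genes came from both genotypes, except for Ccl21f. It had 5, 2, 0 and 3 counts in control A1, B1, C1 and C6 and 0 in every RoraEKO library. With genes of at least 1 count included in the fit, its adjusted p was 0.25 (edgeR's quasi-likelihood test). The highest counts were 18 for Ccl1, 14 for Cxcl9, 13 for Cxcl12, 5 for Ccl28 and 5 for Ccl21f among the ligands. Among the receptors they were 16 for Cxcr4, 15 for Cxcr2, 11 for Ackr3, 9 for Ccr2, 6 for Ccr10 and 4 for Ccr8. Ccl1, Cxcl9, Cxcl12, Ccl21f and Ackr3 peaked in control A1, which with C6 was among the deepest libraries.

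**Figure D4:**
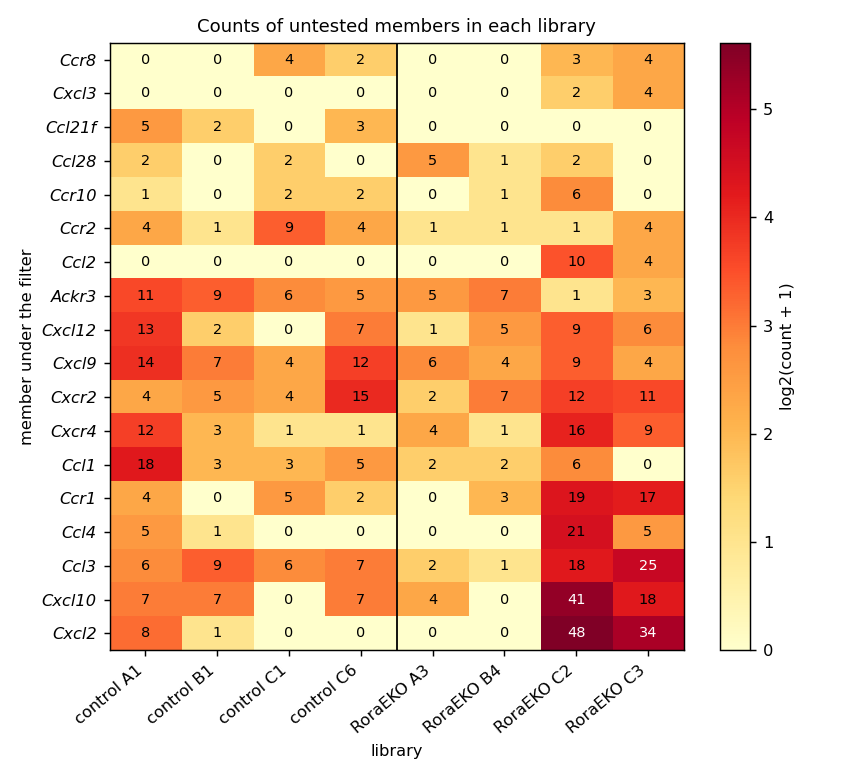
Rounded counts of 18 of the 19 untested chemokine genes that exceeded 3 counts in some library, printed in each cell and coloured by log2(count + 1), with control libraries left of the line and RoraEKO libraries right of it. Cxcl2, Cxcl10, Ccl3, Ccl4, Ccl2 and Ccr1 are highest in RoraEKO C2 or C3, and hold at most 4 counts in RoraEKO A3 and B4.

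Genes that act downstream of the receptors were called at a share near that of all genes. Of 31 listed genes of G protein, kinase and arrestin signalling, 27 were tested, 1 was called higher and 1 lower, against 5.51% of all genes. Their median log2 fold change was 0.05. Grk5, a kinase that turns off G protein-coupled receptors, was lower in RoraEKO, at 1.94 ± 0.220 CPM against 12.5 ± 5.06 CPM in control (SD, n = 4 per genotype), and edgeR's quasi-likelihood test gave it an adjusted p of 0.000921 at a log2 fold change of -2.69. Vav1, an exchange factor of blood cells, was higher in RoraEKO, at 3.72 ± 0.535 CPM against 1.71 ± 0.564 CPM (SD, n = 4 per genotype), and edgeR's quasi-likelihood test gave it an adjusted p of 0.0348 at a log2 fold change of 1.12. Neither overlapped between genotypes. Grk5 was called with each library left out in turn. Vav1 was not called without control A1, B1 or C6 or RoraEKO B4, C2 or C3, with adjusted p-values of 0.0567, 0.112, 0.0828, 0.091, 0.0604 and 0.0972. Nor was it called with library size alone (adjusted p = 0.072), with Xist as a covariate (0.0659) or without control C1 and C6 (0.0505), at log2 fold changes of 1.07, 1.35 and 1.41. Of 11 enzymes that process or bind chemokines, 8 were tested and none was called by edgeR's quasi-likelihood test, its likelihood ratio test or DESeq2, with 1 of the 8 (Furin) at an unadjusted p under 0.05, against 18.2% of all genes. They included Adam10, the sheddase of Cxcl16 and Cx3cl1, at 35 CPM in control and 36.3 CPM in RoraEKO, and Adam17 at 49.7 and 36.9 CPM. Of 16 chemokine-like genes outside the naming rule, 9 were tested and 1 was called, beside the same 5.51% of all genes. That was Cmtm6, of the chemokine-like factor family, which was lower in RoraEKO, at 51.0 ± 7.67 CPM against 87.0 ± 19.1 CPM (SD, n = 4 per genotype), and edgeR's quasi-likelihood test gave it an adjusted p of 0.0352 at a log2 fold change of -0.77. It was not called without control B1, C1 or C6 or RoraEKO A3, C2 or C3, with adjusted p-values of 0.112, 0.0725, 0.0885, 0.115, 0.126 and 0.112. With Xist as a covariate and without control C1 and C6 its adjusted p was 0.161 and 0.229, at log2 fold changes of -0.63 and -0.58, so it was not called either.

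Summed levels of dendritic cell, macrophage, melanocyte and erythroid genes overlapped between genotypes, though the single genes of the last 2 lists all lay to one side of 0. The 12 Langerhans and dendritic cell genes summed to 88.3 to 248.2 CPM in control and 125.5 to 163.3 CPM in RoraEKO, and 10 macrophage genes to 6.34 to 22.7 CPM and 11.3 to 18.2 CPM. Melanocyte genes, 5 in all, summed to 25.2 to 56.2 CPM in control and 17.3 to 33.2 CPM in RoraEKO. All 5 had a log2 fold change below 0, with a median of -0.84, and Pmel did not overlap between genotypes, at 7.70 CPM in control and 4.28 CPM in RoraEKO (adjusted p = 0.104, edgeR's quasi-likelihood test). Sums of 5 erythroid genes ran from 47.8 to 334.0 CPM in control and from 124.9 to 1041 CPM in RoraEKO, and all 5 had a log2 fold change above 0, with a median of 1.94. The median was -0.40 for the dendritic cell genes and -0.14 for the macrophage genes, beside -0.04 over all genes tested. No gene of these lists was called by edgeR's quasi-likelihood test. At an unadjusted p under 0.05 there were 0 of 11 tested dendritic cell genes, 1 of 8 macrophage genes, 3 of 5 melanocyte genes and 4 of 5 erythroid genes, against 18.2% of all genes, and DESeq2 and the likelihood ratio test called 1 of them, the melanocyte gene Tyr, against 7.84% and 7.67% of all genes. The summed genes of spinous and granular keratinocytes given at the start did not overlap between genotypes, but the members differed in direction. Krt1 stood at 29965 and 48566 CPM and Krt10 at 23895 and 37714 CPM in control and RoraEKO, at adjusted p-values of 0.287 and 0.274 in edgeR's quasi-likelihood test. DESeq2 called both, and the likelihood ratio test called Krt10, beside the same shares of all genes. Flg was at 3531 and 3566 CPM, Loricrin at 4233 and 3673 CPM and Ivl at 1121 and 847 CPM, with log2 fold changes of 0.01, -0.20 and -0.41, and none of these 3 was called by any of the tools. The 5 basal keratinocyte genes summed to 233.6 to 554.6 CPM in control and 259.5 to 1146 CPM in RoraEKO and none was called by these tools. Of these 5, 4 had a log2 fold change below 0, and Krt14 had one of 1.12 (adjusted p = 0.382, edgeR's quasi-likelihood test). Krt14 was at 131.7 CPM in control and 286.8 CPM in RoraEKO, where RoraEKO B4 stood at 705.7 CPM. Krt15 did not overlap between genotypes, at 113.5 CPM in control and 76.6 CPM in RoraEKO (adjusted p = 0.0884, edgeR's quasi-likelihood test). Such a gap, as for Pmel, was found for 12.9% of all genes tested. The part of these keratinocyte genes in the level of Cxcl16 was not tested.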

How the data were processed

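RNA was extracted from P4 dorsal epidermis, and poly(A)-enriched libraries from a stranded TruSeq kit were sequenced in pairs. Per the submitters' notes and the study's methods, reads were converted with bcl2fastq 2.20.0.422, trimmed with Skewer, mapped to GRCm39 with STAR 2.5.3a and counted with RSEM. The authors deposited RSEM expected counts per gene for 8 libraries, not scaled for depth or length. The annotation release and the strand setting of counting are not given in the sources used here.

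Groups came from the genotype labels. The expected counts were rounded. Symbols, exons and start sites came from GENCODE M39, in which 54749 of 55416 identifiers were found. Genes passing filterByExpr (13147) were scaled with TMM. Genotypes were compared without covariates by edgeR 4.0.16 (quasi-likelihood test, legacy form) in R 4.3.3, with Benjamini-Hochberg adjustment over these genes. The SE beside a log2 fold change was computed from log2 CPM with a prior count of 2, as the SE of the difference between genotype means, a scale that damps low genes. Nothing says that the 4 samples of a genotype were separate animals beyond the study's n, so p-values measure the spread between these samples.

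The genes and lists were chosen with earlier results of these data known. Every tested chemokine gene is named, and the values of 1 untested receptor are not reported here. Full values are given for those past the cutoffs, those with an unadjusted p under 0.05 and the 6 highest in mean CPM per kb. Of other lists, genes past the cutoffs are named. Furin, Adam10, Adam17, Cd7, Zap70, Tyr, Pmel, Krt14, Krt15, the single macrophage genes and the overlapping neighbours were named after their values were seen. As alternatives, DESeq2 1.42.0, scaling by RLE or by library size alone, other edgeR tests, other filters, cutoffs, title letter or Xist as covariates, and leaving out libraries were tried. The permutation test planned for the Cxcr6 share of T cell genes is not given, since it repeats the Cxcr6 comparison. The scripts were tested on simulated data.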

Additional observations from a re-analysis of the deposited data

Results flagged for a closer look

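In 36 groups of 4 libraries (both genotypes of the 16 tested chemokine genes, of the T cell sum and of the Cxcr6 share), 2 held a library whose gap to its nearest neighbour exceeded Dixon's critical value at 95%, as a share of the group's range. Chance flags about 1 in 20 groups. RoraEKO B4 had 4.56 CPM of Ccr4, where the other RoraEKO libraries had 1.44 to 1.75 CPM. Control B1 had 27.4 CPM of Cxcl16, where the other control libraries had 30.4 to 31 CPM.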

How the results depend on the processing

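Cxcl16 was lower in RoraEKO under all 20 alternatives (log2 fold change -1.14 to -0.71) and was called in 18 of them. Cxcr6 was lower under all 20 (-2.37 to -1.48) and was called in 6. The number of chemokine genes called went from 1 to 2, Cxcl16 and Cxcr6, with library size alone, DESeq2, the likelihood ratio test, all genes with at least 1 count, or an adjusted p cutoff of 0.1. It was 3 with the title letter as a block, Ackr2 being the third. It was 0 without control C1 and C6 and 0 with title letters A and B only, where 7 of 21 and 3 of 16 tested had an unadjusted p under 0.05 (16.6% and 9.65% of all genes in those fits), and 1 to 2 with 1 library left out (Cxcr6 added without control A1, Ccr4 without RoraEKO B4). Each letter holds both genotypes, but the labels do not say what the letters mean.

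Over all genes the count of 725 became 1031 (7.84%) with DESeq2, 1009 (7.67%) with the likelihood ratio test, 999 (7.6%) with the letter block, 727 with library size alone, 794 with all genes of at least 1 count, 460 with Xist as a covariate, 314 without control C1 and C6, 36 with letters A and B only, and 457 to 896 with 1 library left out (457 without control B1, 475 without RoraEKO C3). The 3 pathway genes called became 5 with the letter block (Arrb1 and Furin added), 2 with Xist as a covariate (Vav1 and Cmtm6 lost, Furin added), 2 with library size alone (Vav1 lost), 1 (Grk5) without control C1 and C6, 0 with letters A and B only, and 1 to 3 with 1 library left out. It was 1, Grk5, without control B1, RoraEKO C2 or RoraEKO C3. Furin was added without control C1, Cklf without control C6 and Stat3 with all genes of at least 1 count. The Cxcr6 share of the T cell sum differed by -2.43 (log2) without control C1 and C6 and by -2.86 to -1.97 with 1 library left out.

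The log2 fold change of some uncalled genes turned sign. Cx3cr1 became 0.0504 with Xist and 0.106 without control C1 and C6, and Ccl22 became -0.102 and -0.0467. Ccl25 became 0.0121 with all genes, 0.0432 with Xist and 0.0855 without control C1 and C6. Ccl6 became -0.0290 with library size alone and -0.128 with letters A and B, and Ccl20 became 0.0532 with letters A and B. With 1 library left out, Ccl25 ranged from -0.156 to 0.169, Ccl6 from -0.157 to 0.480, Ccl20 from -1.39 to 0.0669 and Ccl27b from -0.524 to 0.255. The causes were not tested. Receptors with 6 to 15 counts in a library are limited by depth.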
